A study of Mus musculus with 7 samples.

Results

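The data are the regions of open chromatin of the mouse embryonic intestine at embryonic day 16 (E16) and day 13 (E13), mapped by ATAC-seq, in which a transposase inserts adapters where DNA is accessible. The members are all regions obtained when overlapping peaks of the E16 and E13 intestine lists were merged on chromosomes 1 to 19 and X, and each was classed as E16-only, E13-only or shared by the presence of a peak of each list. There were 148004 such regions, against 326695 when all 7 lists of the study were merged. Of them 68619 (46.4%) were E16-only, 50932 (34.4%) were E13-only and 28453 (19.2%) were shared. The study covers 7 libraries, 1 per group; beside the pair described here they are E16 colon, hindstomach and forestomach, E13 stomach, and E16 stomach with a Sox2 knockout. The class of a region follows from the rule and is not a result; position, width, sequence, the genes nearby and the 5 other libraries were not used by it.

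Both intestine libraries came from ShhCre; R26YFP/+ embryos, in which Cre made in Shh-expressing cells switches on a yellow fluorescent reporter. At E16 (E16.5 in the protocol) the proximal small intestine was opened and its epithelium shaken loose after 30 to 40 minutes in 5 mM EDTA at 4 °C; the protocol text used here ends before the E16 ATAC-seq step. At E13 (E13.5) the intestine was digested with trypsin for 10 minutes and sorted after a dead-cell stain, and 50000 cells pooled from 3 to 4 YFP+ embryos were used. Stage thus goes with the isolation method and with the length of gut sampled, and these cannot be told apart. Since each group is a single library, no replicate error could be measured and no test between stages was made; ranges after a share are its 95% Wilson interval, for counting error alone. The lists hold positions without heights, so read depth is unknown.

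Between these stages the pseudostratified gut tube becomes a folded epithelium with villi, and its cells begin to make the proteins of absorptive enterocytes. CDX, HNF4, HNF1 and GATA proteins are the transcription factors best known for opening and using enhancers in this epithelium, and HNF4 factors act at many genes of lipid uptake. Promoters rich in CG dinucleotides are usually open in most cell types, whereas enhancers away from genes carry most tissue and stage differences.

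Promoter windows with a peak in E16 intestine and in no other library show which listed starts were open in this library alone. A gene can have other windows that differ. RefSeq promoter windows (GRCm38.p6, 250 bases before to 50 after each listed start) numbered 21019 at 17250 genes; 544 had a peak in E16 but not in E13 intestine, and 88 of these had none in the other 5 libraries either. Among the genes of the lists described further on, 12 windows of 11 genes were in that set, namely Abcg5, Abcg8, Mep1a, Muc13, Npc1l1, Nr1i3, S100b, Sis, Slc26a3, Slc3a1 and Slc7a9. Another window of Abcg8 had a peak in E13 but not in E16 intestine, and was open elsewhere too. Of the 12 windows, 6 are printed 5′ to 3′ on the strand of the gene. They belong to digestive enzymes, transporters and a mucin of the mature enterocyte, and were picked by hand from those holding a CDX, HNF4 or HNF1 match. The windows of Abcg5, Abcg8 and Slc7a9 in the set hold such a match too and are not printed. That each printed window holds a match thus follows from the choice. The windows are those of Sis (sucrase-isomaltase, minus strand, chr3:72967814-72968113), Mep1a (the protease meprin alpha, minus strand, chr17:43502724-43503023), Slc3a1 (a subunit of a cystine and dibasic amino acid transporter, plus strand, chr17:85028097-85028396), Muc13 (a membrane mucin, plus strand, chr16:33794239-33794538), Npc1l1 (the cholesterol uptake protein, minus strand, chr11:6230196-6230495) and Slc26a3 (a chloride and bicarbonate exchanger, plus strand, chr12:31437969-31438268). Capitals mark matches, on either strand, to motifs of CDX, HNF4, HNF1 and GATA factors. CDX was searched as CNATAAA and HNF4 as CAAAGNCCA; the letters for GATA were AGATAA, and HNF1 is given by name.
Sis: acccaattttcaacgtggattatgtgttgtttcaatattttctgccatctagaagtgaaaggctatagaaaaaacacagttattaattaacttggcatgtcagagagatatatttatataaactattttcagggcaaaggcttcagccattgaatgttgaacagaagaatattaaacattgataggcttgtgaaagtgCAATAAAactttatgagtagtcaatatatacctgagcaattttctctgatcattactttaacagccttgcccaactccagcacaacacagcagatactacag
Mep1a: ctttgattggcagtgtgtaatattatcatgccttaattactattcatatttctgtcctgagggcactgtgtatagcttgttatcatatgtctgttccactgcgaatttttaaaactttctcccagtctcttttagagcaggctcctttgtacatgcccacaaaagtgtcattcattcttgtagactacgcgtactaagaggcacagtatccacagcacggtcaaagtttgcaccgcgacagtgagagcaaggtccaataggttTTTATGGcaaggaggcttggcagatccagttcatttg
Slc3a1: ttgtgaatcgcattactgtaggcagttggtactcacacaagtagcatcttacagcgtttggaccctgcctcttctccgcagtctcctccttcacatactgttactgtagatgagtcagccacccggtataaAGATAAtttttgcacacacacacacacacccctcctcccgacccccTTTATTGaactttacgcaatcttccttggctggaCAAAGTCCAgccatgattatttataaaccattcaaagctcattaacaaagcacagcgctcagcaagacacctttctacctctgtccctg
Muc13: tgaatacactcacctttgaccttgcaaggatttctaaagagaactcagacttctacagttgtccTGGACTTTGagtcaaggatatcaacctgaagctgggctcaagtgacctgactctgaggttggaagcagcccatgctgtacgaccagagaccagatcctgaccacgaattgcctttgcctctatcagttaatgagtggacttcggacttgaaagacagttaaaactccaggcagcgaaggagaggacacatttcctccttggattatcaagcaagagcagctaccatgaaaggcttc
Npc1l1: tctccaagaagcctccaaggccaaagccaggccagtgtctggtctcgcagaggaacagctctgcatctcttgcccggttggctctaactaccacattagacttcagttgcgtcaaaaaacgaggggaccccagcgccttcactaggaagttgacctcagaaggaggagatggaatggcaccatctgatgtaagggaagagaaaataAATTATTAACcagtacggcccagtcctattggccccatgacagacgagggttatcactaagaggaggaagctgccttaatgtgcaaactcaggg
Slc26a3: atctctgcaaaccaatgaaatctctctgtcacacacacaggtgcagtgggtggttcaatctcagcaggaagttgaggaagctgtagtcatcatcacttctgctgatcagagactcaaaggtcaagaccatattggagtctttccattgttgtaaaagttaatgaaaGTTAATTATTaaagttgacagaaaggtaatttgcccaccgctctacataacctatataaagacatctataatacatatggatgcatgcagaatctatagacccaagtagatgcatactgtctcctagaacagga

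Of these windows, 2 hold their matches inside the E16 peak. In Slc3a1 the E16 peak covered a GATA match at -119 to -114, a CDX match at -73 to -67 and an HNF4 match at -39 to -31, counted from 0 at the listed start. In Mep1a it covered a CDX match at 13 to 19. The CDX match of Sis lay at -52 to -46, just upstream of an E16 peak at chr3:72967805-72967892. That peak has the narrowest width of the E16 list, 87 bp. The matches of Muc13, Npc1l1 and Slc26a3 were outside their peaks too. A match is a description of letters, not a measured site. Over all 88 windows, HNF4 letters stood in 9 (10.2%, 5.47 to 18.3), against 3 of 98 (3.06%, 1.05 to 8.62) in the windows open in E13 intestine alone and 1.74% of all windows. 2 of the 9 are overlapping windows of Slc7a9 that hold the same match; with overlapping windows taken as 1, the letters stood at 8 of 85 loci (9.41%, 4.85 to 17.5), against 3 of 96 (3.13%, 1.07 to 8.79). HNF1 letters stood in 4 (4.55%, 1.78 to 11.1) of the E16-alone windows, against 2 of 98 (2.04%) of the E13-alone windows and 0.376% of all. Other motifs among the 18 searched differed about as much, AP-1 letters (TGANTCA) standing in 13.6% of the E16-alone and 5.10% of the E13-alone windows, against 7.04% of all, and SOX letters (ACAATG) in 11.4% and 5.10%, against 10.5%. FOXA letters (TGTTTAC) stood in 0 of the 88 E16-alone windows (0%, 0 to 4.18) and in 6 of the 98 E13-alone windows (6.12%, 2.84 to 12.7). CDX letters were in 18.2% of the E16-alone and 19.4% of the E13-alone windows, against 9.49% of all, and GATA letters in 22.7% and 18.4%, against 9.69%. The intervals of the E16-alone and E13-alone windows overlap for all 18 motifs, and both sets had a lower GC content (medians 49.5% and 52.3%) than all windows (56.7%).

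The 88 windows at 86 genes held other genes of the intestinal lining that no list contained, named here after their values were seen. They were Amn, a part of the vitamin B12 receptor, Slc51b, a subunit of the bile acid exporter, Pdzd3, a scaffold of brush border transporters, Itln1, a lectin of secretory cells, and Abcc2, an export pump. The set was mixed: 15 of the 86 carry names of predicted genes or clones, and others are best known outside the intestine, such as Neurog2, a factor of neurons, Gapdhs, a glycolytic enzyme of sperm, Krtap24-1, a hair protein, and Il1a, a cytokine.

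The opposite class, windows with a peak in E13 but not in E16 intestine, was larger, at 2511. Of these, 98 were open in E13 intestine alone, while 93.3% had a peak in Sox2 knockout stomach and 85.3% in E13 stomach. Of the 544 E16-only windows 70.2% and 53.3% had a peak there, and of all windows 61.4% and 56.6%. The median GC content of the 2511 windows was 63.3%, with a median of 20 CG dinucleotides per window, against 54.7% and 10 in the 544 E16-only windows. 3 are printed to show the range, with CG in capitals: Notch1 (a Notch receptor, minus strand, chr2:26503773-26504072) and Hoxd13 (a homeobox gene of the hindgut, plus strand, chr2:74667975-74668274) are CG-rich, with 23 and 37 CG, while a Lin28b window (an RNA-binding protein of fetal cells, minus strand, chr10:45470152-45470451) has 8 and was open in E13 intestine alone. The E13 peaks of Notch1 (chr2:26503784-26503846) and Lin28b (chr10:45470264-45470326) have the narrowest width of the E13 list, 62 bp.
Notch1: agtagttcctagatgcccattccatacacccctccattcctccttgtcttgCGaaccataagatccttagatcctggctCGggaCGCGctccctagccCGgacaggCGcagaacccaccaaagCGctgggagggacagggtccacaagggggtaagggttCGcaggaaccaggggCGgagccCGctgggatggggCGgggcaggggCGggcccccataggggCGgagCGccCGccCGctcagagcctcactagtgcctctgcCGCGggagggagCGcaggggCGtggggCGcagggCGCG
Hoxd13: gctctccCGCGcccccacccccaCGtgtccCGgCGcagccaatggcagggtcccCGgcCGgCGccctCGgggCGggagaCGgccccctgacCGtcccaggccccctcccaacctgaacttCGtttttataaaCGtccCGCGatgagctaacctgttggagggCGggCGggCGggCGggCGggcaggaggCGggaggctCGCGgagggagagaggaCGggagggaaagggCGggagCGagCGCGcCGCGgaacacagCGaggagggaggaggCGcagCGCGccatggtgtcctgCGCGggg
Lin28b: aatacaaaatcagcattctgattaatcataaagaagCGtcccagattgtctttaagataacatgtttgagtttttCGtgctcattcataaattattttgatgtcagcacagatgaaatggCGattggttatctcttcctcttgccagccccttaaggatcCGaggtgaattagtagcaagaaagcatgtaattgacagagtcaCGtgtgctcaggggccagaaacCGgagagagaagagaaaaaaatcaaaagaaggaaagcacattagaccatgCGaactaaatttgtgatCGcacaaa

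Regions of the classes lay in different places. Within 1 kb of an end of a protein-coding gene there were 3439 E16-only, 6796 E13-only and 10656 shared regions, so that 33.6% (32.7 to 34.5) of unshared regions there were E16-only. Inside genes there were 27799 E16-only and 19420 E13-only regions, and E16-only regions were 58.9% of the unshared ones. At 10 to 100 kb from a gene E16-only regions numbered 17070 and E13-only regions 11109, and beyond 100 kb 13884 and 9758. At the listed start sites, some of which lie inside a gene body, 2310 E16-only stood beside 5708 E13-only regions (28.8% E16-only, 27.8 to 29.8). Thus E16 had the greater number of unshared regions away from genes and E13 the greater number at gene ends, and this split held with other gene-end windows and with the widest peaks. Sharing also depended on position, since 51.0% of regions at gene ends were shared, against 9.80% beyond 100 kb.

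**Figure D1:**
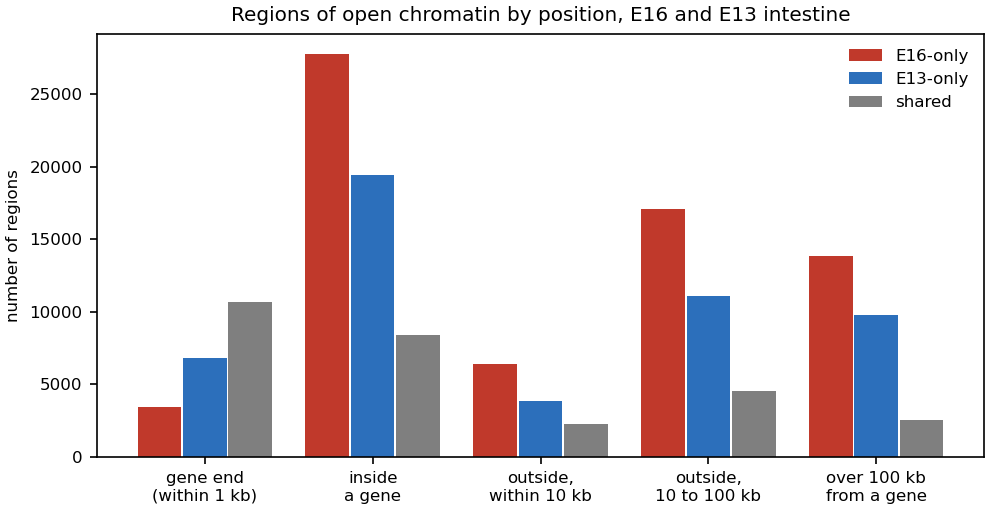
Regions by position (x axis), as numbers (y axis), for E16-only, E13-only and shared regions of the intestine. At gene ends the bar of E16-only regions (3439) is below that of E13-only regions (6796) and the shared bar is the highest; in the other 4 positions the E16-only bar is the highest.

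Peak number and width differed between the lists and go with these counts. E16 intestine had 97568 peaks over 17.1 Mb, with a median width of 130 bp, and E13 intestine had 81179 peaks over 11.9 Mb, with a median of 108 bp. The narrowest width was 87 bp in E16 intestine (16.4% of peaks) and 62 bp in E13 intestine (19.4%). Wide peaks were shared more often: of the E16 peaks 12.4% in the lowest quartile of width and 58.1% in the highest overlapped an E13 peak, and of the E13 peaks 15.2% and 70.3% overlapped an E16 peak. E16-only regions had a median width of 116 bp, E13-only regions 88 bp and shared regions 256 bp. With the widest E16 peaks taken at the length of the E13 list, E16-only regions were 50.6% of all unshared regions, in place of 57.4% (57.1 to 57.7), and 28.3% of those at gene ends.

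The 5 libraries outside the rule overlapped the classes unequally. E16-only regions had a peak in E16 colon in 55.1% (54.7 to 55.5), in E16 hindstomach in 40.5%, in E16 forestomach in 31.8%, in Sox2 knockout stomach in 10.8% and in E13 stomach in 8.71% (8.50 to 8.92). E13-only regions had a peak in E13 stomach in 40.7%, in Sox2 knockout stomach in 43.0%, in hindstomach in 23.8%, in forestomach in 17.0% and in colon in 6887 of 50932 regions (13.2 to 13.8%). Thus, over all positions, the E16-only class was found most often in the other wild-type E16 libraries and the E13-only class in E13 stomach and in the E16 knockout library. At gene ends E16-only regions were in knockout stomach in 41.0%, in hindstomach in 49.4%, in forestomach in 40.4% and in colon in 38.3%. These lists ranged from 87443 peaks in forestomach to 135743 in colon. With the widest peaks of every list at 1 length, E16-only regions were in colon in 47.9%, in hindstomach in 35.4% and in forestomach in 34.9%. A total of 14097 E16-only regions (20.5%) had a peak in colon, hindstomach and forestomach alike, 12935 (18.9%) in colon but neither of these stomach parts, and 21094 (30.7%) in none of the 5. E16 colon and hindstomach were isolated with EDTA like E16 intestine, while E13 stomach was digested like E13 intestine; forestomach was freed with dispase. How the knockout cells were isolated is not stated in the labels. The part of isolation in this pattern was not tested.

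**Figure D2:**
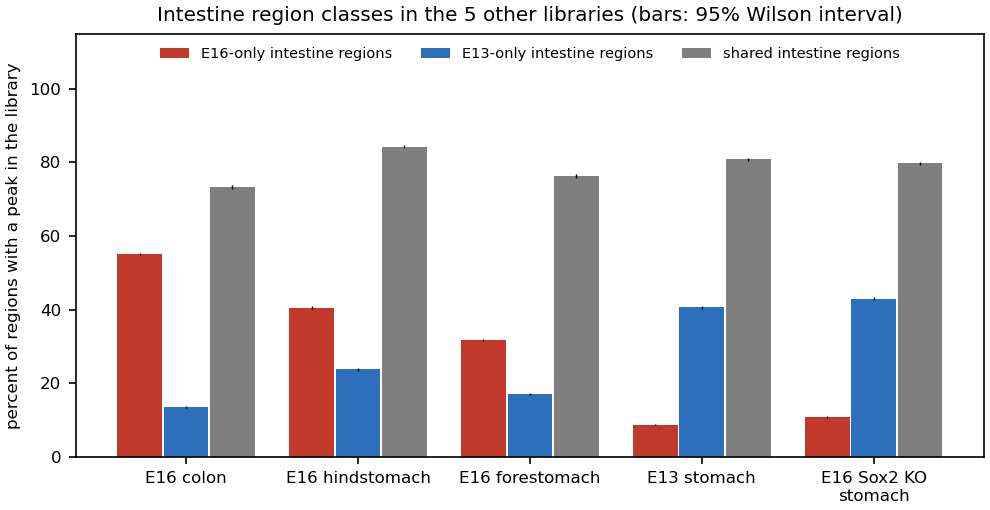
Percent of E16-only, E13-only and shared intestine regions (y axis) that have a peak in each of the 5 other libraries (x axis), with 95% Wilson intervals as thin bars. E16-only bars are above E13-only bars in colon, hindstomach and forestomach, and below them in E13 stomach and knockout stomach; shared regions are the highest in every library.

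Start sites gave a second measure for each gene. Of 21627 protein-coding genes, 11263 (52.1%) had a peak within 1 kb of the start in both stages, 806 (3.73%) in E16 intestine alone of the pair, 2465 (11.4%) in E13 intestine alone and 7093 (32.8%) in neither; where the start is not listed, either gene end was taken. A start peak named below can thus lie at the far end of such a gene, as for Eps8, Hoxb13, Notum, Pou2f3, Smoc2 and Tff3. Of the starts with a peak at E16 and none at E13, 51.2% had one in colon and 39.8% in E13 stomach. Of those with a peak at E13 and none at E16, 84.8% had one in E13 stomach and 28.7% in colon.

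For genes, each region was given to the nearest gene body within 100 kb, and a gene was called towards a stage when that stage's own regions were at least 2-fold the other's (0.5 added to each) and at least 3 more. In the counts within 10 kb of a gene body given below, a region counts at every gene in reach, also where another gene is nearer. Of 19272 genes with a region, 2288 (11.9%) were called towards E16 and 752 (3.90%) towards E13; 46.2% had more E16-only and 29.2% more E13-only regions. These shares are the background for every list. The lists were chosen with earlier results of these data known, so that their counts describe the members and are not independent evidence.

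**Figure D3:**
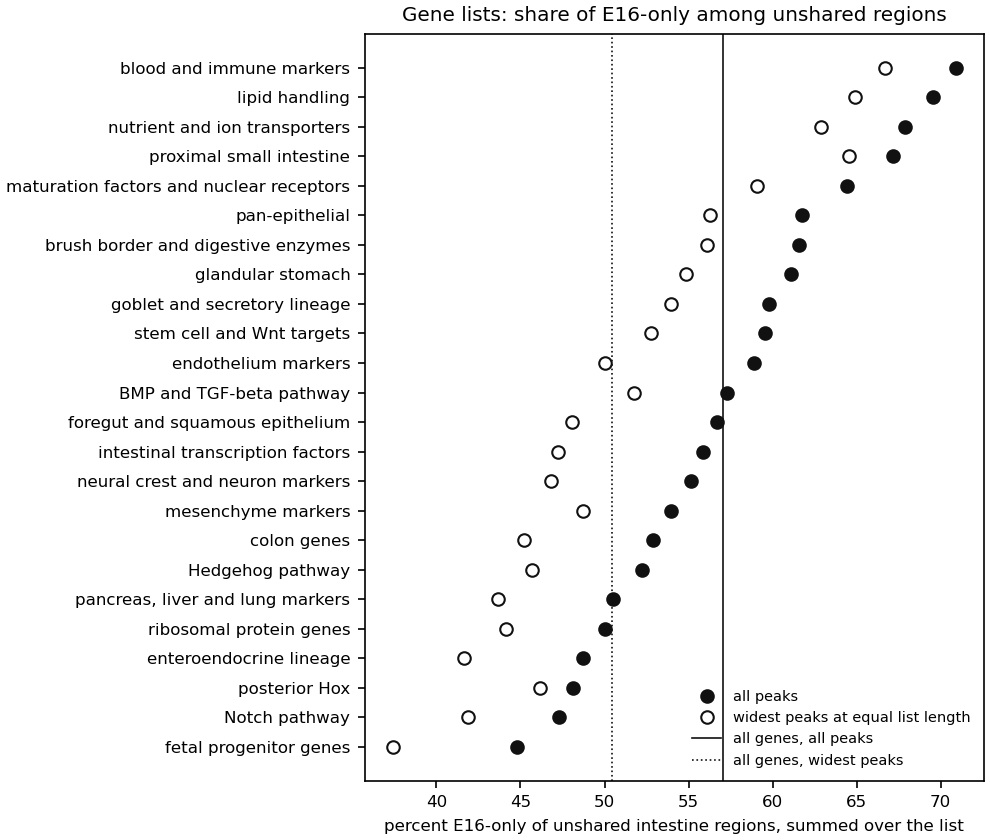
Percent of unshared regions that are E16-only (x axis), summed over the members of each gene list (rows), from all peaks (filled) and from the widest ones when both lists are cut to 1 length (open). The vertical lines give the same share over all genes, 57.1% with all peaks and 50.4% with the widest. Lists of lipid handling, transport and the proximal small intestine are right of their lines, and Notch and fetal progenitor genes left of them; blood and immune markers are the farthest right.

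By the share of E16-only among unshared regions, lipid handling genes stood highest of the enterocyte lists, just above nutrient and ion transporters (67.9%). Of 22 genes, 14 had more E16-only and 4 more E13-only regions, 8 were called towards E16 and 1 towards E13, and their regions summed to 73 E16-only and 32 E13-only (69.5% E16-only). Their median log2 ratio of E16-only to E13-only regions was 1.26, against 0 over all genes. Mttp, which loads lipid onto apolipoprotein B, had 9 E16-only, 0 E13-only and 0 shared regions. Apob, the scaffold protein of chylomicrons, had 12 E16-only, 3 E13-only and 3 shared regions, and Sar1b, a GTPase that exports chylomicrons from the endoplasmic reticulum, had 5, 0 and 1. Mogat2, which makes diacylglycerol from absorbed monoacylglycerol, had 6, 2 and 2. Dgat2, which makes triglyceride, was the member called towards E13, with 1 E16-only, 5 E13-only and 4 shared regions. Fabp1 and Apoc3 had no region. With the widest E16 peaks, as many as E13 has, 12 members had more E16-only and 4 more E13-only regions, and 7 and 1 were called, beside 7.05% and 6.54% of all genes; the median log2 ratio was then 0.57.

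The E16-only regions of Mttp (chr3:138089855-138143418, GRCm38.p6) ran along the gene body and past its far end, from 8.54 to 56.7 kb downstream of the listed start. Of these 9 regions 5 had a peak in no other library, 3 had one in E16 colon, 2 in hindstomach, 0 in forestomach, and 0 in E13 stomach or the knockout library. The start itself carried a peak in all 7 libraries and was counted at the neighbouring gene Trmt10a, so the peak lists differ at Mttp in the body and not at the start. At Apob (chr12:7977629-8016839) 8 of the 12 E16-only regions were in no other library, while the 3 E13-only regions were all present in knockout stomach and 2 of them in E13 stomach. Within 10 kb of the gene body Apob had 3 E16-only and 1 E13-only region, which is under the call. A shared Apob region at chr12:7977604-7977733, which spans the start, had no peak in any of the other 5 libraries.

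**Figure D4:**
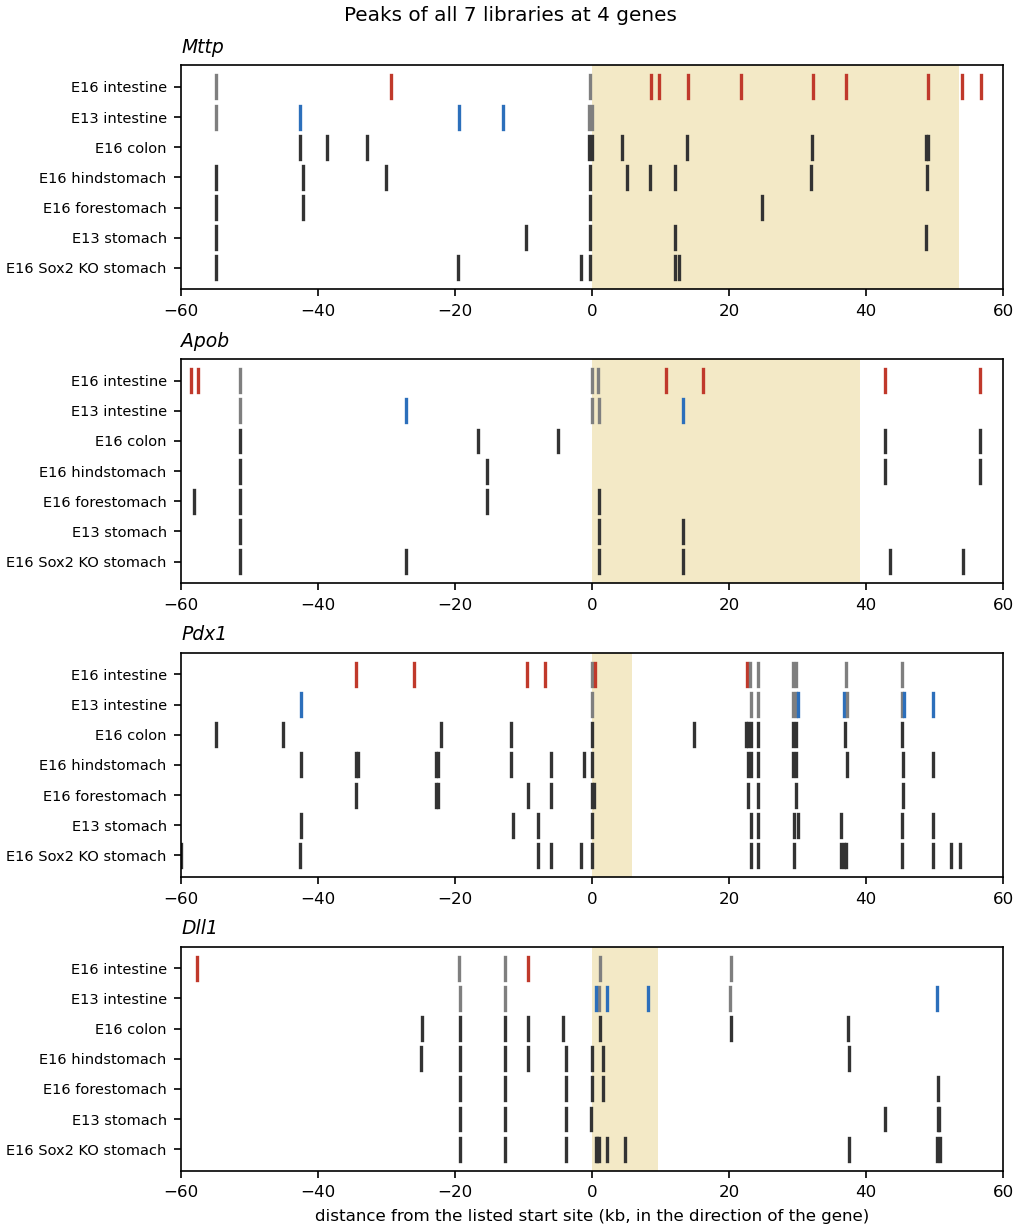
Peaks of all 7 libraries (rows) by distance in kb from the listed start (x axis, in the direction of the gene, gene body shaded) at Mttp, Apob, Pdx1 and Dll1. In the intestine rows red marks E16-only, blue E13-only and grey shared peaks. Within 60 kb of the Mttp start E16 intestine has 12 peaks, 9 of them red in or past the body, and E13 intestine has 6. In the same order the counts are 9 and 5 at Apob, 13 and 12 at Pdx1, and 6 and 8 at Dll1.

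Transcription factors and nuclear receptors of enterocyte maturation were mostly on the E16 side. Of 18 members 15 had more E16-only and 2 more E13-only regions, with 8 called towards E16 and 0 towards E13 and a median log2 ratio of 1.12. Thrb, a thyroid hormone receptor, had 26 E16-only, 10 E13-only and 1 shared region, Maf, a factor of enterocyte gene expression, had 11, 4 and 5, and Smad4, the common SMAD of BMP and TGF-beta signalling, had 9, 2 and 3. Nr1h4, the bile acid receptor FXR, had 8 E16-only, 1 E13-only and 4 shared regions, and 6 of the 8 were also in hindstomach but 1 in colon. Its listed start nevertheless had a peak at E13 and none at E16. The xenobiotic receptors Nr1i2 and Nr1i3 and the lipid regulator Creb3l3 were the members with a start peak at E16 and none at E13. Rxra, the partner of these receptors, had more E13-only regions, 14, beside 10 E16-only and 1 shared. When only the widest E16 peaks were taken, as many as E13 has, 12 members still had more E16-only and 4 more E13-only regions, 4 were called towards E16, and Maf was no longer called. The median log2 ratio was then 0.87, above the 0.57 of the lipid handling genes. The unshared regions of Maf all lay over 10 kb from the gene.

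Among nutrient and ion transporters 16 of 20 had more E16-only and 3 more E13-only regions, with 6 called towards E16 and 0 towards E13. Cftr, the apical chloride channel, had 4 E16-only, 0 E13-only and 5 shared regions, Slc34a2, a phosphate transporter, had 8, 3 and 4, Slc11a2, an iron transporter, 8, 4 and 1, and Slc15a1, the peptide transporter, 8, 5 and 3. Their starts were less uniform: Slc10a2, Slc26a3, Slc39a4, Slc3a1, Slc7a7 and Slc7a9 had a start peak at E16 alone of the stages, and Slc13a1, Slc46a1 and Slc6a19 at E13 alone. With 6 of 20 starts open at E16 alone the list stands beside a background of 3.73%. With the widest peaks 15 members had more E16-only regions and 3 were called, Slc34a2 (5 E16-only and 4 E13-only) not among them; within 10 kb of the gene body it was not called either (4 and 2).

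Brush border and digestive enzyme genes were split. Of 23 members 14 had more E16-only and 6 more E13-only regions; 6 were called towards E16 and 1 towards E13. The microvillus genes Ezr (ezrin, 10 E16-only, 4 E13-only and 6 shared), Pls1 (the actin bundler plastin, 7, 2 and 6) and Myo7b (a myosin of the intermicrovillar links, 4, 0 and 2) were called towards E16, and Eps8, an actin capper at microvillus tips, had 14, 7 and 6. Espn, the actin bundler espin, was called towards E13, with 0, 4 and 4, and Cdhr5, a protocadherin of the intermicrovillar links, had 0, 2 and 0. Only 2 of the 23 were called towards E16 with the widest peaks, beside 7.05% of all genes, and Ezr (7 E16-only and 4 E13-only) was not called. Enpep, Mep1a, Myo1a and Sis had a start peak at E16 alone of the stages, and Anpep, Cdhr5 and Eps8 at E13 alone. The starts of Lct, Alpi, Treh, Ace, Mep1b and Tmprss15, mostly enzymes of the mature brush border, had a peak in neither stage.

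Genes of the proximal small intestine had regions on the E16 side, which goes with the proximal segment named in the E16 protocol. Of 11 members 9 had more E16-only and 0 more E13-only regions, and 3 were called towards E16. Cybrd1, the duodenal iron reductase, had 6 E16-only, 0 E13-only and 1 shared region, and Pdx1, the duodenal and pancreatic homeobox factor, had 5, 0 and 1. Of the 5 at Pdx1 3 were also in forestomach and 0 in colon. Within 60 kb of the Pdx1 start, with peaks nearer to other genes included, E16 intestine had 13 peaks and E13 intestine 12. Counts within 10 kb of a gene body gave 6 members with more E16-only and 3 with more E13-only regions. Posterior Hox genes, which mark the hindgut, had few regions, with 13 E16-only and 14 E13-only over 11 members, but 6 of the 11 had a start peak at E13 alone of the stages (Hoxa10, Hoxb13, Hoxd9, Hoxd10, Hoxd11 and Hoxd13) and 1 at E16 alone (Hoxc10). Open Hox starts were not particular to E13 intestine. They numbered 8 of 11 there, 7 in E13 stomach and 8 in knockout stomach. In E16 intestine they numbered 3, in colon 3, in hindstomach 4 and in forestomach 1. Counted within 10 kb of the gene body, 0 of the Hox genes had more E16-only and 8 more E13-only regions, 4 were called towards E13, 23.7% of the unshared regions were E16-only, and the median log2 ratio was -1.58 in place of 0. Whether the segment sampled accounts for these counts was not tested.

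**Figure D5:**
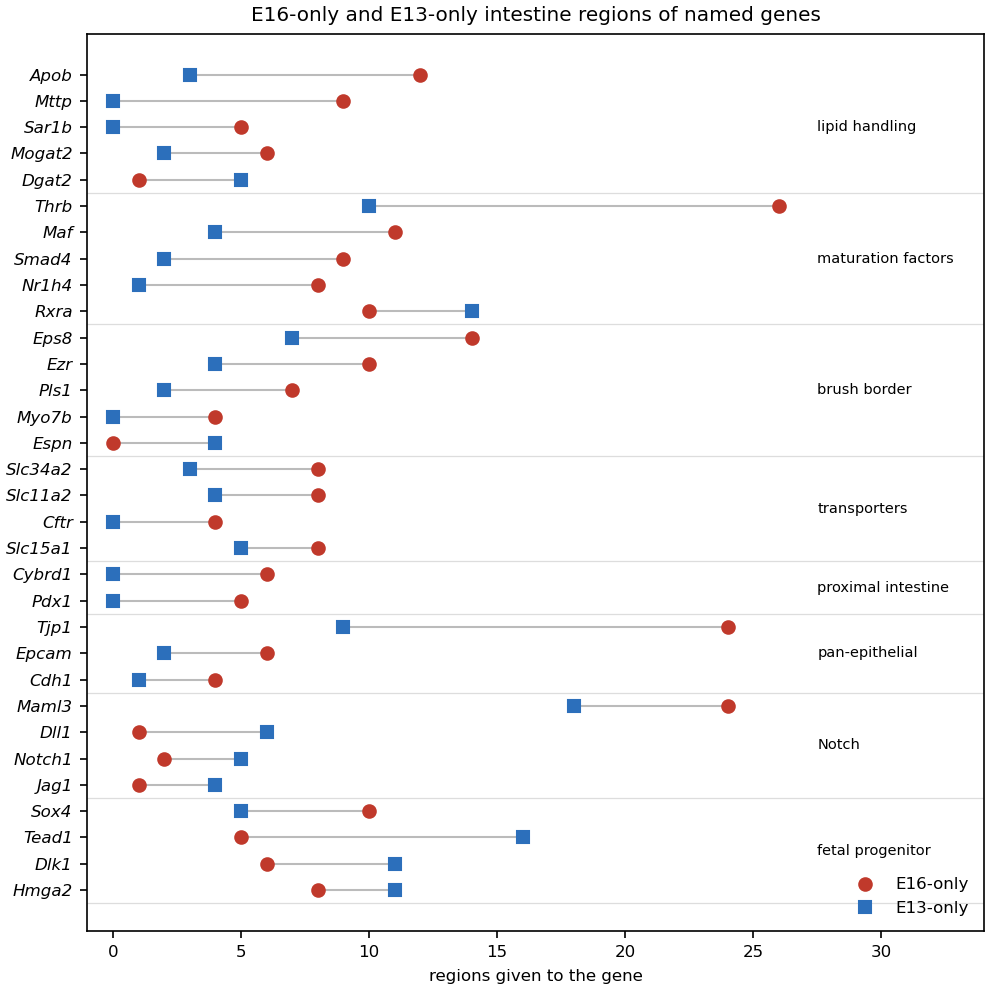
E16-only (red circles) and E13-only (blue squares) regions given to each gene (x axis) for members of 8 lists (right). Mttp, Thrb, Tjp1 and Nr1h4 have the circle far right of the square, while Dgat2, Espn, Dll1, Notch1, Jag1 and Tead1 have it on the left.

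The transcription factors of intestinal identity did not lean to 1 stage. Of 14 members 7 had more E16-only and 4 more E13-only regions, and 3 were called towards E16 and 1 towards E13. Cdx2, the main intestinal homeobox factor, had 1 E16-only, 2 E13-only and 5 shared regions, and 4 of its 5 shared regions were seen in E13 stomach too. Cdx1, its relative, had 3, 0 and 1 and a peak near a gene end at E16 alone of the stages. Hnf4a had 3, 3 and 5 and Hnf4g 8, 5 and 5. Gata6 (11, 3 and 2) and Klf5, a factor of the proliferating epithelium (11, 4 and 4), were called towards E16. Foxa1, a pioneer factor of the endoderm, was called towards E13 (1, 5 and 2), with 4 of its 5 E13-only regions in E13 stomach, and Foxa2 had 9, 12 and 4. The direction of this list depended on the assignment: its median log2 ratio was 0.10 by the nearest gene, but -0.67 over regions within 10 kb of the gene body, where Cdx1 (3 E16-only and 1 E13-only), Gata6 (2 and 1) and Klf5 (2 and 2) were not called.

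Secretory genes were mixed. Of the goblet and secretory list 9 of 16 members with a region had more E16-only and 5 more E13-only regions, and 5 were called towards E16 and 1 towards E13. The mucins Muc3 (7 E16-only, 0 E13-only and 2 shared), Muc13 (4, 0 and 2) and Muc2 (3, 0 and 1) and the mucus protein Fcgbp (6, 2 and 1) were called towards E16, although with the widest peaks and within 10 kb of the gene body Muc2 was not. The fifth was Gfi1, a transcription factor of the secretory lineage, with 4, 1 and 0 and a start peak at E16 alone of the stages. In this list 7 members had more E16-only and 7 more E13-only regions with the widest peaks. Atoh1, the factor that starts the secretory lineage, was called towards E13 (1, 4 and 2), and Agr2, Pou2f3 and Tff3 had a start peak at E13 alone of the stages. Enteroendocrine genes summed to 58 E16-only and 61 E13-only regions over 22 members, with 2 called each way: Nkx2-2 (8, 3 and 1) and the proglucagon gene Gcg (3, 0 and 0) towards E16, and Tac1, which encodes a neuropeptide (2, 8 and 4), and Rfx6, a factor of endocrine cells (2, 5 and 2), towards E13. Of these 22, 8 had a start peak at E13 alone of the stages, among them Chga, Insm1, Neurod1 and Sst, and 1, Ghrl, at E16 alone. Of the enteroendocrine genes, with the widest peaks, 7 had more E16-only and 10 more E13-only regions, and within 10 kb of the gene body 5 and 7, in place of 11 and 8. Within 10 kb of the gene body Atoh1 (1 E16-only and 2 E13-only), Nkx2-2 (3 and 1), Tac1 (0 and 2) and Rfx6 (1 and 1) were not called, nor was Nkx2-2 with the widest peaks (6 and 4). Away from gene ends Gcg (2 and 0) and Atoh1 (1 and 2) were not called.

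Stem cell and Wnt target genes had 14 of 24 members with more E16-only and 7 with more E13-only regions, and 5 were called towards E16 and 0 towards E13. Tcf7l2, the main Wnt effector of the intestine, had 22 E16-only, 7 E13-only and 10 shared regions, Lrig1, a growth factor receptor inhibitor of stem cells, had 10, 2 and 5, and Cd44, a hyaluronan receptor and Wnt target, had 9, 2 and 3. Lgr5, the marker of adult intestinal stem cells, had 9, 8 and 3, and its start was open in both stages. Axin2, Lef1, Nkd1, Notum, Olfm4 and Smoc2 had a start peak at E13 alone of the stages, and Tcf7 at E16 alone. With the widest peaks 8 members had more E16-only and 9 more E13-only regions. Within 10 kb of the gene body 10 had more of each, and Lrig1 (4 E16-only and 2 E13-only) was not called.

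BMP and TGF-beta genes had 16 of 24 members with more E16-only and 7 with more E13-only regions, and 7 were called towards E16 and 1 towards E13. The receptor Tgfbr2 (9 E16-only, 3 E13-only and 4 shared) and its signal carrier Smad3 (8, 2 and 4) were called towards E16, and Bmpr1b, a BMP receptor, towards E13 (3, 13 and 4). Within 10 kb of the gene body 8 members had more E16-only and 10 more E13-only regions, 4 were called each way and the median log2 ratio was 0 in place of 0.41. Tgfbr2 (6 E16-only and 3 E13-only) was not called with the widest peaks. In the Hedgehog pathway, whose ligands pass from the epithelium to the mesenchyme, 8 of 14 members had more E16-only and 4 more E13-only regions, and 0 were called either way; with the widest peaks 3 had more E16-only and 10 more E13-only regions. Shh had 5, 7 and 2, with a peak near a gene end at E16 and none at E13, and Ihh, the other gut ligand, had 0, 0 and 3. The repressor Gli3 had 14, 17 and 1.

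Notch and fetal progenitor genes had more E13-only than E16-only regions (47.3% and 44.8% of the unshared regions E16-only), also with the widest peaks and within 10 kb of the gene body. Away from gene ends the split was near even, at 49.7% and 48.2% E16-only, beside 59.9% over all genes. There 7 Notch genes had more E16-only and 8 more E13-only regions. Of the fetal progenitor genes 9 had more E16-only and 8 more E13-only regions there, and both list medians were 0. Of 18 Notch genes 6 had more E16-only and 9 more E13-only regions, and 1 was called towards E16 and 4 towards E13, against a background of 3.90% towards E13. The ligands Dll1 (1 E16-only, 6 E13-only and 2 shared) and Jag1 (1, 4 and 2), the receptor Notch1 (2, 5 and 1) and the coactivator Maml1 (0, 3 and 1) were called towards E13, and Lfng, which glycosylates Notch receptors, towards E16 (3, 0 and 1). At Dll1 4 of the 6 E13-only regions were in knockout stomach and 1 in E13 stomach. Hes5, Jag2, Maml2, Notch1 and Notch3 had a start peak at E13 alone of the stages and no member at E16 alone, so that 12 starts were open at E16 and 17 at E13. The target Hes1 had 11, 10 and 7. With the widest peaks 2 members had more E16-only and 12 more E13-only regions, with the same number called towards E13. Within 10 kb of the gene body Dll1 (1 E16-only and 3 E13-only) and Jag1 (0 and 2) were not called, and away from gene ends Notch1 was not. Lfng was called neither within 10 kb (1 and 0) nor with the widest peaks (3 and 1).

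Of 19 fetal progenitor genes 6 had more E16-only and 10 more E13-only regions, with 1 called towards E16 and 2 towards E13. Tead1, the partner of YAP on DNA, had 5 E16-only, 16 E13-only and 7 shared regions, and of the 16, 10 were in knockout stomach and 8 in E13 stomach. Dlk1, an imprinted Notch ligand relative, had 6, 11 and 2, and Hmga2, a chromatin protein of fetal cells, 8, 11 and 4. Lin28b, an inhibitor of let-7 maturation, had 4, 4 and 3. Its printed window was open at E13 alone, while 3 of its E16-only regions inside the gene were also in colon, hindstomach and forestomach. Igf2bp2, an RNA-binding protein of fetal tissue, was called towards E16 (4, 1 and 1), but not within 10 kb of the gene body (3 and 1). Hmga1, Lin28b and Mycn had a start peak at E13 alone of the stages.

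Genes of neighbouring epithelia were mixed. Trp63, the master factor of squamous epithelium, was called towards E13 in the intestine, with 2 E16-only, 12 E13-only and 1 shared region, and 8 of the 12 had no peak in any other library, forestomach included. Sox2, the foregut factor, was called towards E16 (6, 1 and 2), and 5 of its 6 E16-only regions were also in colon; its unshared regions all lay over 10 kb from the gene. Of 16 glandular stomach genes 11 had a start peak in neither stage, among them Atp4a, Atp4b, Muc5ac, Muc6 and Pgc. Of 14 colon genes 6 had more E16-only and 3 more E13-only regions. Among 21 pan-epithelial genes 6 were called towards E16 and 0 towards E13, with Tjp1, a tight junction scaffold, at 24 E16-only, 9 E13-only and 8 shared regions, Cdh1, which encodes E-cadherin, at 4, 1 and 6, and Epcam at 6, 2 and 7. With the widest peaks Tjp1 and Epcam were not called, and within 10 kb of the gene body Cdh1 (3 E16-only and 1 E13-only) was not.

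The labelled epithelium was checked by start sites. Of the 21 pan-epithelial genes 15 had a start peak in both stages, and so did Cdx2, Hnf4a, Hnf4g, Vil1 and Epcam. Over all genes 55.8% of starts had a peak at E16 and 63.5% at E13. Among markers of other cells, starts were open for 6 of 26 mesenchyme genes at E16 and 17 at E13, for 3 of 15 endothelium genes at E16 and 8 at E13, for 6 of 14 neural crest and neuron genes at E16 and 9 at E13, and for 4 of 17 blood and immune genes at either stage. Starts with a peak at E13 alone included Col1a2, Dcn, Des, Prrx1, Twist1 and Twist2 of the mesenchyme and Kdr, Flt1 and Tek of the endothelium. Markers with a start peak in neither stage included Ptprc, Csf1r, Pecam1, Cdh5, Col3a1 and Sox10, while Vim, Col1a1, Foxf1, Myh11 and Zeb1 of the mesenchyme, Erg, Sox17 and Cldn5 of the endothelium and Spi1 and Runx1 of the blood list had one in both. Around blood genes, however, E16-only regions numbered 56 and E13-only regions 23, and Runx1, a factor of blood and also of some epithelia, had 20, 4 and 4. The median log2 ratio of the blood list was 0.94, and 0.24 with the widest peaks. Pan-epithelial starts were open for 17 of 21 genes at either stage, and the blood starts were as even. Mesenchyme, endothelium and neural crest starts were open more often at E13. The part of other cells in the region counts was not tested. In bulk material a change in cell makeup and a change within cells cannot be told apart. Of 28 ribosomal protein genes, 25 had a start peak in both stages, and their regions summed to 18 E16-only and 18 E13-only.

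Over all genes, those with the largest excess were long. Cdh13, a cadherin without a cytoplasmic tail, had 56 E16-only, 13 E13-only and 5 shared regions, Tshz2 had 42, 11 and 5 and Nckap5 45, 13 and 7, while on the other side Gpc5, a glypican, had 28, 44 and 8, Fgf14 11, 27 and 4 (not called within 10 kb of the gene body, with 11 and 22) and Sptbn1, a spectrin, 5, 17 and 6. Median gene length was 44.1 kb among genes called towards E16 and 36.6 kb among those called towards E13, against 17.3 kb over all genes. Among genes with a body under 50 kb, Tcim, a positive regulator of Wnt signalling, led on the E16 side with 15 E16-only, 0 E13-only and 4 shared regions, and Nudt7, a peroxisomal coenzyme A hydrolase, had 13, 1 and 2. Of the 13 at Nudt7 9 were also in colon. Tnfaip3, an inhibitor of NF-kB signalling, had 14, 3 and 1. On the E13 side Pcsk1, a prohormone convertase of endocrine cells, had 4, 14 and 3, Fgf18 had 1, 9 and 0, E2f7, a cell cycle repressor, 2, 12 and 2, and Tmem74 0, 8 and 0, of which 2 lay within 10 kb of the gene. In windows of 100 kb, one that holds Lipc, a lipase gene, had 15 E16-only, 2 E13-only and 1 shared region, and the window of the Hoxb1 to Hoxb6 genes had 1, 9 and 0.

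MicroRNA genes of the epithelium were looked at after the values of other genes were seen. The miR-192, miR-194 and miR-215 family is abundant in enterocytes and comes from a pair of clusters. The mature 5p sequences of RefSeq (GRCm38.p6) are printed with the seed, bases 2 to 8, in capitals, because the clusters carry the same seeds.
miR-192-5p: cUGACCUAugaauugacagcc
miR-215-5p: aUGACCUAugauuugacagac
miR-194-5p: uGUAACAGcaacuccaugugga

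miR-192-5p and miR-215-5p share the seed UGACCUA. At the Mir194-1 and Mir215 cluster on chromosome 1, 2 E16-only regions, 215 and 1757 bp from the Mir215 hairpin, had no peak in any other library. Upstream of it stood 2 shared regions, at chr1:185308952-185309209 and chr1:185312021-185312247, that had a peak in all 5 other libraries. The Mir192 and Mir194-2 cluster on chromosome 19 had 2 E16-only and 2 E13-only regions. The E16-only region nearest to it, 143 bp from the Mir194-2 hairpin, was also in colon, hindstomach, forestomach and knockout stomach.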

How the data were processed

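ATAC-seq of mouse embryonic gut was deposited as 7 peak lists, 1 library per group. Per the submitters' processing notes, cutadapt, Bowtie2, MACS2 and GRCm38/mm10 were used; their versions and thresholds, and any pooling, are not stated in the labels. The deposited lists have 3 columns, chromosome, start and end, so the authors' unit is other than a signal, and they hold no height, score or read count. Whether starts count from 0 or 1 is not stated; positions are printed as deposited.

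Peaks on chromosomes Y and M were left out (724 in E16 and 190 in E13 intestine). Overlapping peaks (at least 1 bp) were merged. Gene bodies and promoter windows came from RefSeq tables of GRCm38.p6, and 17273 of 21627 genes had a listed start. Depth is unknown, so precision is given only as 95% Wilson intervals of counts. With 1 library per group no test between groups was run. The planned motif search in regions needs a genome and was limited to promoter windows. The members, the 24 gene lists (437 of 438 genes found, Gif not) and the alternatives were chosen with earlier results of these data known.

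Named genes are, per list, the 4 members with the largest excess in each direction (at least 2 regions), members with a start peak at 1 stage, the 8 genes with the largest excess in each direction over all genes and under 50 kb, and a set of epithelial and regional factors; others are said to be named after their values were seen. The counting was tested on simulated data. The scripts ran in Python 3.11.15 with pandas 2.3.3, matplotlib 3.10.9, scipy 1.17.1 and numpy 2.4.6. Some genes of the lists are counted but not reported here by name.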

Additional observations from a re-analysis of the deposited data

Results flagged for a closer look

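Peaks on chromosome Y, which no comparison used, numbered 719 in E16 intestine (0.731% of its peaks) and 187 in E13 intestine (0.230%). The other libraries ranged from 0.0644% in Sox2 knockout stomach to 0.812% in E16 colon. The labels do not state the sex of the embryos. On chromosome X E16-only regions were 50.9% (49.3 to 52.5) of unshared regions, against at least 56.0% on each autosome. The part of sex in either value was not tested.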

How the results depend on the processing

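Of 1043 alternative values for 267 results, 900 stayed close to the reported value, 132 moved and 11 changed direction; the direction changes of the lists and genes reported here follow, and moves of other lists and called genes are given, for those named above, beside their counts. The wider part of each list gave 32086 E16-only, 22886 E13-only and 16853 shared regions. The share of E16-only among unshared regions was 57.1% when peaks had to overlap by at least 50% of the shorter one, 58.0% when peaks up to 100 bp apart were merged, 50.6% with the widest peaks at equal list length and 58.4% in the wider part of each list. At gene ends it was 29.0% with a window of 0.5 kb, 38.8% with 2 kb and 28.3% with the widest peaks, and away from gene ends 52.9% with the widest. Among regions off gene ends, and then among the widest peaks, E16-only regions were in colon in 56.0% and 47.9% and in E13 stomach in 7.70% and 7.98%, and E13-only regions were in colon in 13.03% and 9.63% and in E13 stomach in 35.9% and 38.7%.

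With the widest peaks 1343 genes were called towards E16 and 1245 towards E13, against 2288 and 752 with all peaks. Of 65 named genes called towards E16, 46 were still called and 65 kept their sign, and of 36 called towards E13, 36 were still called. With every region within 10 kb of a gene body counted at that gene, 39 of the 65 and 21 of the 36 were still called. Apob, Cdx1, Dll1, Gata6, Igf2bp2, Jag1, Klf5, Lfng, Lrig1, Sox2 and Tac1 were not among them. List medians of the log2 ratio changed sign for intestinal transcription factors (-0.67 within 10 kb, -0.46 with the widest peaks), Hedgehog genes (-0.24, widest), mesenchyme (-0.74 within 10 kb, -0.24 widest), neural crest and neuron markers (0.22 away from gene ends) and pancreas, liver and lung markers (-0.24 within 10 kb, -1.58 widest). Within 10 kb, Wdr11 (-1.58) and Lmo4 (-1.22) changed sign. The cause was not tested. No paired analysis was possible because each group has 1 library and no result comes from a test. Limits are the single libraries, the unknown depth, the narrow peaks that make up most unshared regions, and stage going with isolation and gut segment.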
